A study of Rattus norvegicus with 8 samples.

Results

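DNA methylation genes were followed in the hypothalamus of young rats: 3 writers of the mark (Dnmt1, Dnmt3a, Dnmt3b), 3 erasers (Tet1, Tet2, Tet3) and 2 readers (Mbd2, Uhrf1). These 8 genes were fixed by name, in view of the role of the mark in nutritional programming, and 5 of them were measured among 14506 named genes. Dnmt1, Dnmt3a, Dnmt3b, Mbd2 and Uhrf1 each had a single uniquely named probe set. The erasers Tet1, Tet2 and Tet3 had none in the probe annotation used here and were not analysed here.

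Each of the 8 arrays (Affymetrix Rat Gene 1.0) carried total RNA from the hypothalamus of female Sprague-Dawley offspring aged 21 days. The groups were CR-l (dams restricted, offspring given leptin), CR-s (dams restricted, saline), Con-l (dams normally fed, leptin) and Con-s (dams normally fed, saline), with replicates A and B in each. Restriction took away 50% of the dams' calories from gestation day 11 to 21 and went on after birth. Leptin or saline was given between postnatal days 2 and 8 in every group. The sample descriptions can also be read as giving the saline or leptin to the dams. The design note writes Con-r for a group read here as Con-l. No label says whether a sample is 1 animal, several animals or several litters, so the p-values measure the spread between these samples only.

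Methylation of cytosines followed by guanine (CpG) is copied after DNA replication by DNMT1, which UHRF1 brings to half-methylated DNA, and is laid down anew by DNMT3A and DNMT3B. TET enzymes oxidise the mark and open the way to its removal, and proteins such as MBD2 bind it and recruit the NuRD complex, which holds histone deacetylases. In the maturing brain DNMT3A is the main enzyme of new methylation in neurons, and early nutrition has been studied as one input to such marks.

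The sequences around the gene starts hold the substrate of the enzymes that these genes encode. They are shown for Dnmt3a, of the 5 measured members the one with the smallest p in the diet comparison, and for the maintenance pair Dnmt1 and Uhrf1. Each window runs from 250 bases before to 50 bases after an annotated start (RefSeq, GRCr8), reads 5′ to 3′ along the gene, and has every CG in capitals. The windows lie at chr6:32598352-32598651 on the plus strand for Dnmt3a, at chr8:27762792-27763091 on the minus strand for Dnmt1 and at chr9:1222936-1223235 on the plus strand for Uhrf1.
Dnmt3a: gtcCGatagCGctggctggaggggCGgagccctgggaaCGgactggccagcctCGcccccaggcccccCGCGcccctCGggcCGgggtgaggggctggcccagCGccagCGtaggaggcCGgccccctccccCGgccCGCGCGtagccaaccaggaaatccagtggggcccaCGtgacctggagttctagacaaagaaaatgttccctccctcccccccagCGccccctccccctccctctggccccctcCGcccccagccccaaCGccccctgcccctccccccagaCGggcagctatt
Dnmt1: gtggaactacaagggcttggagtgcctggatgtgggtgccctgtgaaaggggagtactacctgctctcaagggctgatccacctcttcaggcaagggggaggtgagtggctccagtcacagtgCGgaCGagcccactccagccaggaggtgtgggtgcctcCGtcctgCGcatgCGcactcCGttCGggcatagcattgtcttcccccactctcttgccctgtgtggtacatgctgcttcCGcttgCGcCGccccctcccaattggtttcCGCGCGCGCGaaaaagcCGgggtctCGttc
Uhrf1: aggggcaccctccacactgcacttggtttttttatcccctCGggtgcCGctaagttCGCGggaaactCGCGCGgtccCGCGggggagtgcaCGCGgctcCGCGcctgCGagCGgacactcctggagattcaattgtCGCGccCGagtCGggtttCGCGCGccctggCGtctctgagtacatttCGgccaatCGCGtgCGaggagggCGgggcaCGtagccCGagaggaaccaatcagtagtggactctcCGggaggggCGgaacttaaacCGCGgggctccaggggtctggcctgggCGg

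The Dnmt3a window held 21 CG pairs, a number reached by 22.6% of all 33469 windows of this length in the RefSeq table, where the median was 7. The Dnmt1 window held 17, a number reached by 29.0% of windows. Uhrf1 has 3 annotated starts with 8, 13 and 35 CG pairs, and the last is the window shown, a number reached by 6.13% of windows. The single Mbd2 window (chr18:66449108-66449407, plus strand) held the most of the 4 genes with an entry, 39, reached by 3.76% of windows. Letters of the E2F motif, the site of factors that drive genes of the dividing cell, were searched as TTTCGCGC and TTTGGCGC on both strands, which can overlap on opposite strands. They occurred in 0.792% of windows, among them the Dnmt1 window (as GCGCGAAA, 25 bases after the start) and the shown Uhrf1 window (as TTTCGCGC, 99 bases before it). The other Uhrf1 windows held neither form, and further forms of the motif were not searched. The matches are of letters only, and no binding or methylation was measured in these samples.

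Values below are log2 RMA intensities, a relative brightness per probe set that can be compared between arrays but not between genes. A gene passed where its limma adjusted p (Benjamini-Hochberg over all 14506 genes) was under 0.05. Array medians lay between 111.8 and 114.1 on the linear scale. The interquartile range was 3.01 to 3.08 in log2 units on 7 arrays and 2.92 on the remaining one, CR-s replicate B. All 14 hypothalamic marker genes had a probe set, with no detection call to judge presence or absence. Of these, 3 passed between diets: Npy (log2 difference 0.75, limma adjusted p = 0.0229) and Agrp (0.70, adjusted p = 0.0233) were higher and Oxt (-0.38, adjusted p = 0.0496) lower in restricted offspring.

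**Figure D1:**
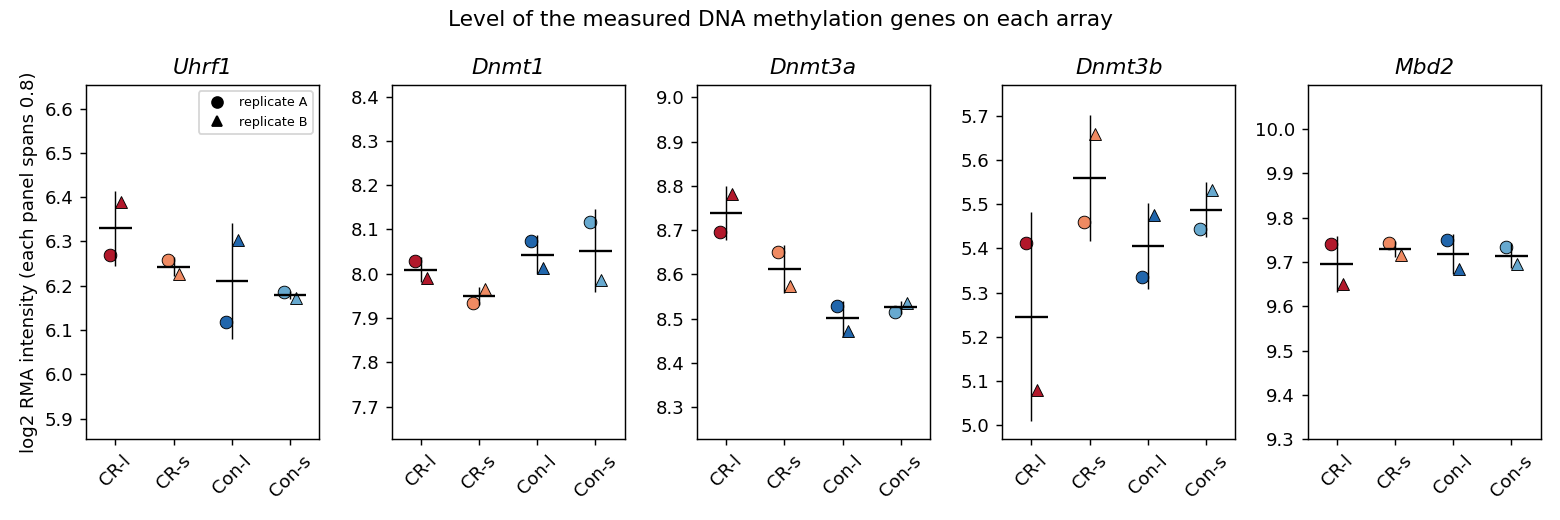
Log2 RMA intensity (y axis, each panel spans 0.8 log2 units at its own level) of Uhrf1, Dnmt1, Dnmt3a, Dnmt3b and Mbd2 on the 8 arrays, by group (x axis). Circles are replicate A, triangles replicate B, horizontal bars the group means and vertical bars the SD (n = 2); for Dnmt3a all CR arrays (8.57 to 8.78) lie above all Con arrays (8.47 to 8.54), while Mbd2 stays between 9.65 and 9.75.

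Across the diets, Dnmt3a was the member with the clearest difference: it was higher in restricted offspring by 1.12-fold, and it did not pass. The other measured members differed by at most 1.07-fold, with intervals that include 0. Of the 5 members, 0 passed in the averaged diet comparison (limma, CR-l and CR-s against Con-l and Con-s, 4 arrays each), where 1.21% of all genes passed, 0.324% with a positive and 0.882% with a negative difference. At an unadjusted p under 0.05 there was 1 member, Dnmt3a, against 15.8% of all genes. In that comparison 175 genes passed in all, and with 1 array left out between 0 (without Con-s replicate B) and 27 (without CR-l replicate A) did, which also bears on the marker genes named as passing below. Non-overlap of the CR and Con arrays also held for Dnmt3a alone among the members, against 11.2% of all genes.

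Dnmt3a, the enzyme that places new methyl groups on unmethylated CpG and, in neurons, also on other cytosines, measured 8.70 and 8.78 in CR-l, 8.65 and 8.57 in CR-s, 8.53 and 8.47 in Con-l, and 8.51 and 8.54 in Con-s (replicates A and B). Every CR array was brighter than every Con array, and both CR-l arrays were brighter than both CR-s arrays. The averaged difference was 0.16 in log2 units (SE 0.04, 95% confidence interval 0.06 to 0.27, unadjusted p = 0.00760, adjusted p = 0.144). In leptin-treated offspring the CR-l minus Con-l difference was 0.24 (SE 0.06, interval 0.09 to 0.39, adjusted p = 0.178), and in saline-treated offspring CR-s minus Con-s was 0.09 (SE 0.06, interval -0.06 to 0.24, adjusted p = 0.746). The diet differences under leptin and under saline were not shown to differ from each other (interaction 0.15, interval -0.06 to 0.36, adjusted p = 0.898).

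The call for Dnmt3a depended on which genes were fitted with it. Among the upper 60 percent of genes by mean intensity its averaged diet difference passed with limma (adjusted p = 0.0493). That setting passed 609 genes in all, against 175 in the main fit, and the Dnmt3a value lay just under the threshold. The other alternative fits with all arrays gave Dnmt3a a limma adjusted p between 0.0568 and 0.270. Leaving out 1 array gave differences between 0.14 and 0.18 and an adjusted p between 0.203 and 0.347. The smaller Dnmt3a differences depended more on single arrays: CR-s minus Con-s was 0.049 without CR-s replicate A, and CR-l minus CR-s was 0.084 without CR-l replicate B. In whole tissue, more cells that express a gene and more of its RNA per cell cannot be told apart. Of 10 general neuron markers 7 were higher in restricted offspring with a median of 0.05 and 0 passing, and all 11 oligodendrocyte markers were lower, 4 of them passing; the part of these shifts in the Dnmt3a difference was not tested.

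**Figure D2:**
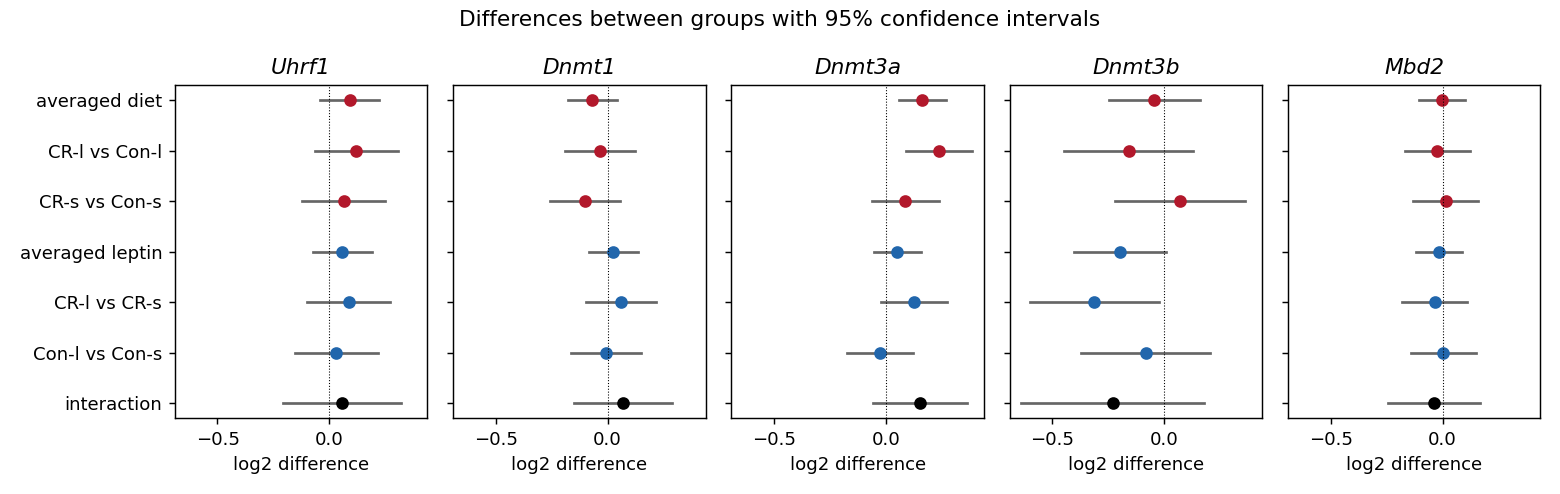
Log2 differences (x axis, points) with 95% confidence intervals (lines) for the 5 measured genes in 7 comparisons (y axis); red marks diet comparisons, blue leptin comparisons and black the interaction. Intervals for Dnmt3a exclude 0 in the averaged diet comparison (0.06 to 0.27) and in CR-l against Con-l (0.09 to 0.39), and those for Mbd2 lie around 0 throughout; no difference passed after adjustment over all genes.

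Dnmt3b, the other de novo methyltransferase, known mainly from early embryos, was the most variable member, spanning 0.58 log2 units over the 8 arrays. Its probe set was dim, at 34 to 51 on the linear scale, below the array medians of 111.8 to 114.1. No detection call was used to tell such a signal from background. Dnmt3b measured 5.41 and 5.08 in CR-l, 5.46 and 5.66 in CR-s, 5.34 and 5.47 in Con-l, and 5.44 and 5.53 in Con-s. CR-l replicate B was the lowest array and CR-s replicate B the highest, so that both CR-l arrays lay below both CR-s arrays. With leptin in restricted offspring (CR-l minus CR-s) the difference was -0.31 (SE 0.12, interval -0.60 to -0.02, unadjusted p = 0.0375, adjusted p = 0.808). Without CR-l replicate B this difference was -0.15, without CR-s replicate B -0.21 and without CR-l replicate A -0.48. In control offspring Con-l minus Con-s was -0.08 (interval -0.37 to 0.21), and the 2 leptin differences were not shown to differ (interaction -0.23, interval -0.64 to 0.18, adjusted p = 0.910). The interaction was -0.064 without CR-l replicate B, -0.13 without CR-s replicate B and -0.40 without CR-l replicate A. The averaged diet difference was -0.04 (interval -0.25 to 0.16, adjusted p = 0.854).

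Dnmt1, which copies the mark onto newly made DNA, measured 8.03 and 7.99 in CR-l, 7.93 and 7.96 in CR-s, 8.07 and 8.01 in Con-l, and 8.12 and 7.99 in Con-s. Both CR-s arrays were dimmer than all other arrays, and CR-l overlapped both control groups. The averaged diet difference was -0.07 (SE 0.05, interval -0.18 to 0.04, adjusted p = 0.541), and CR-s minus Con-s was -0.10 (SE 0.07, interval -0.26 to 0.05, adjusted p = 0.716). Con-s replicate A, the brightest array for Dnmt1, weighed on both: without it the averaged difference was -0.035 and CR-s minus Con-s -0.036, and without Con-s replicate B they were -0.10 and -0.17.

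Uhrf1, the reader that recognises half-methylated DNA and brings DNMT1 to it, measured 6.27 and 6.39 in CR-l, 6.26 and 6.23 in CR-s, 6.12 and 6.30 in Con-l, and 6.19 and 6.17 in Con-s. Its probe set was also dim, at 69 to 84 on the linear scale, below the array medians, and no detection call was used. Con-l replicate B was brighter than both CR-s arrays and CR-l replicate A, so the diets overlapped. The averaged diet difference was 0.09 (SE 0.06, interval -0.04 to 0.22, adjusted p = 0.484), opposite in sign to that of its partner Dnmt1, and neither passed. It was 0.046 without Con-l replicate A and 0.14 without Con-l replicate B. Both genes are known to be expressed most in dividing cells. Of 15 measured genes of dividing cells 13 were lower in restricted offspring and 3 passed, Ccna2 (log2 -0.43), Rrm2 (-0.43) and Top2a (-0.64), with a list median of -0.15 against 0.00 over all genes. The other 2 were higher, by up to 0.68, and 0 of these passed. Arrays did not overlap between diets for 7 of the lower genes and 1 of the higher genes, against 11.2% of all genes in either direction. The mean log2 value of that list, relative to its mean over the 8 arrays, was -0.11 to -0.036 on CR arrays and 0.062 to 0.10 on Con arrays, with no overlap between diets. Its summed intensity, which weighs bright genes most, was 1451 to 1630 on CR arrays and 1532 to 1589 on Con arrays and did overlap. The part of this list in the values of Dnmt1 and Uhrf1 was not tested.

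Mbd2, which binds methylated CpG and brings the NuRD complex, was the steadiest member, with a span of 0.10 log2 units over the 8 arrays. It measured 9.74 and 9.65 in CR-l, 9.74 and 9.72 in CR-s, 9.75 and 9.69 in Con-l, and 9.73 and 9.69 in Con-s. All groups overlapped, and replicate A was the brighter array in each group. The averaged diet difference was -0.0039 (SE 0.04, interval -0.11 to 0.10, adjusted p = 0.979), and the averaged leptin difference was -0.02 (interval -0.12 to 0.09, adjusted p = 0.969).

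Leptin moved no member past the threshold. In CR-l against CR-s, with limma, 0 of 5 members passed, against 0% of all genes, and 1 (Dnmt3b) had an unadjusted p under 0.05, against 5.85% of all genes. Arrays did not overlap for 4 of 5 members, against 36.7% of all genes, the exception being Mbd2. The differences of the other members were 0.13 for Dnmt3a (interval -0.02 to 0.27), 0.09 for Uhrf1, 0.06 for Dnmt1 and -0.03 for Mbd2. In Con-l against Con-s 0 of 5 passed (limma, 0% of all genes) and 0 had an unadjusted p under 0.05 (4.19% of all genes). Arrays overlapped for all 5, so 0 were apart, against 32.7% of all genes, with differences from -0.08 (Dnmt3b) to 0.03 (Uhrf1). Averaged over both diets, leptin minus saline differences ran from -0.20 for Dnmt3b (interval -0.40 to 0.01, unadjusted p = 0.0563; -0.11 without CR-l replicate B) to 0.06 for Uhrf1, with 0 of 5 passing (limma, 0% of all genes) and 0 at an unadjusted p under 0.05 (4.87% of all genes). Leptin and saline arrays were apart for 0 members, against 2.37% of all genes.

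Leptin-treated restricted offspring were also set against saline-treated controls. In CR-l against Con-s, where 0.0138% of all genes passed, 0 of 5 members did (limma), and 1 (Dnmt3a) had an unadjusted p under 0.05, against 12.2% of all genes. Arrays did not overlap for 3 members (Dnmt3a, Dnmt3b, Uhrf1), against 45.5% of all genes. Dnmt3a was higher by 0.21 (interval 0.07 to 0.36, adjusted p = 0.291), and Uhrf1 by 0.15 (interval -0.04 to 0.34, adjusted p = 0.497). The Dnmt3b difference was -0.24 (interval -0.53 to 0.05, adjusted p = 0.482). Without CR-l replicate B the Dnmt3b difference was -0.075 and that of Uhrf1 0.090, and without CR-l replicate A they were -0.41 and 0.21. In CR-l against Con-l 0 of 5 passed (limma, 0.0207% of all genes), 1 of them (Dnmt3a) at an unadjusted p under 0.05 (14.2% of all genes) and without overlap (46.4% of all genes). In CR-s against Con-s 0 of 5 passed (limma, 0% of all genes), 0 at an unadjusted p under 0.05 (8.50% of all genes), and 3 (Dnmt1, Dnmt3a, Uhrf1) did not overlap (38.0% of all genes). In the interaction 0 of 5 passed (limma, 0% of all genes), 0 at an unadjusted p under 0.05 (5.15% of all genes). These comparisons share arrays, so the same member appearing in several of them is not repeated evidence.

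Other genes of the pathway were taken from 10 lists with 148 genes beside the members, of which 124 were measured. In the averaged diet comparison 0 of the 124 passed (limma), 22 had an unadjusted p under 0.05 (17.7%, against 15.8% of all genes), and 17 did not overlap between diets (13.7%, against 11.2%). Their median difference was 0.01, against 0.00 over all genes. The 124 also held 0 passing genes in each of the other 7 comparisons (limma). At an unadjusted p under 0.05 they held 13 in CR-l against Con-l (10.5%, against 14.2% of all genes), 15 in CR-l against Con-s (12.1%, against 12.2%) and 6 in CR-s against Con-s (4.84%, against 8.50%). There were 8 in CR-l against CR-s (6.45%, against 5.85%), 2 in Con-l against Con-s (1.61%, against 4.19%), 8 in the averaged leptin comparison (6.45%, against 4.87%) and 6 in the interaction (4.84%, against 5.15%).

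**Figure D3:**
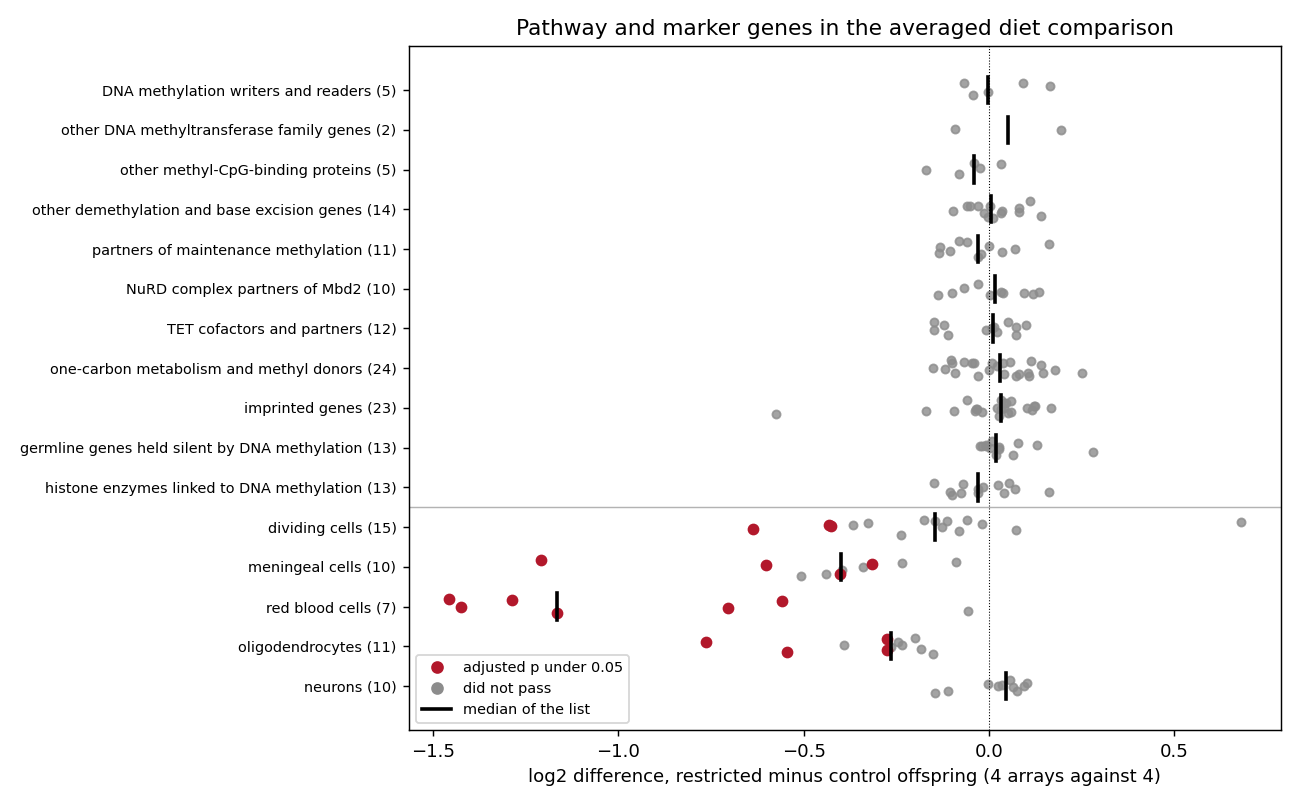
Log2 difference, restricted minus control offspring (x axis, 4 arrays against 4), of each measured gene in the DNA methylation lists (above the line) and in 5 marker lists (below it); numbers in brackets are measured genes, red points passed at an adjusted p under 0.05, grey points did not, and black bars are list medians. List medians above the line lie between -0.04 and 0.05 with 0 red points, and those of the red blood cell, meningeal, oligodendrocyte and dividing cell lists between -1.17 and -0.15.

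Among the remaining writers, Trdmt1, a relative of the DNA methyltransferases that methylates transfer RNA, was higher by 0.19 (SE 0.07, adjusted p = 0.255), and Dnmt3l, which stimulates the de novo enzymes in germ cells, was lower by 0.09 (SE 0.05, adjusted p = 0.420). Trdmt1 measured 7.16 and 6.99 in CR-l, 7.12 and 6.89 in CR-s, 6.82 and 6.87 in Con-l, and 6.91 and 6.77 in Con-s. CR-s replicate B fell within the control range, so the diets overlapped.

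Of 5 measured methyl-CpG-binding and related proteins 4 were lower in restricted offspring and 0 passed (median -0.04). Uhrf2, the paralogue of Uhrf1 that prefers oxidised cytosine, measured 9.02 and 8.91 in CR-l, 9.05 and 8.89 in CR-s, 9.19 and 9.15 in Con-l, and 9.17 and 9.03 in Con-s. Con-s replicate B was dimmer than CR-s replicate A, and the difference of -0.17 (SE 0.06, adjusted p = 0.218) did not pass. Mbd3, the NuRD subunit without firm binding to methylated DNA, was at -0.08 (SE 0.06), Zbtb33 (Kaiso) at -0.04 (SE 0.05) and Zbtb38 at -0.03 (SE 0.04).

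With no TET gene measured, the removal of the mark was represented by 14 genes of base excision and deamination, of which 8 were higher, 6 lower and 0 passed (median 0.01). Tdg, the glycosylase that excises oxidised methylcytosine, measured 7.84 and 7.96 in CR-l, 7.86 and 7.86 in CR-s, 7.83 and 7.79 in Con-l, and 7.78 and 7.79 in Con-s. All CR arrays were brighter than all Con arrays, by 0.08 on average (SE 0.04, adjusted p = 0.432). Polb, the polymerase that fills the repair gap, differed by 0.11 (SE 0.06, adjusted p = 0.434) and Apobec2 by -0.10 (SE 0.05, adjusted p = 0.431).

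Apobec1, a cytidine deaminase best known for editing apolipoprotein B messenger RNA, had the smallest interaction p of that list. It measured 6.11 and 6.34 in CR-l, 5.40 and 5.78 in CR-s, 5.78 and 5.74 in Con-l, and 5.79 and 5.77 in Con-s. The probe set was dim, below the array medians, and no detection call was used. The CR-l arrays stood above all others and CR-s replicate A below all others, with an interaction of 0.66 (SE 0.18, unadjusted p = 0.00811, adjusted p = 0.898). Like Dnmt3a, Apobec1 had its 2 brightest arrays in CR-l, and neither interaction passed.

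Among the 11 partners of maintenance methylation 7 were lower and 0 passed (median -0.03). Cdca7, which works with the remodeller HELLS to open chromatin for maintenance, measured 6.22 and 6.23 in CR-l, 6.47 and 6.56 in CR-s, 6.47 and 6.53 in Con-l, and 6.47 and 6.55 in Con-s. Both CR-l arrays were dimmer than every other array, and the other groups overlapped. The interaction was -0.28 (SE 0.09, unadjusted p = 0.0155, adjusted p = 0.898) and the averaged diet difference -0.14 (SE 0.04, adjusted p = 0.209). Suv39h1, a histone H3 lysine 9 methyltransferase, was higher by 0.16 (SE 0.06, adjusted p = 0.226) and Ehmt2, another enzyme of that residue, was lower by 0.10 (SE 0.05, adjusted p = 0.407), both without overlap between diets.

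Of 13 histone enzymes linked to DNA methylation 8 were lower and 0 passed (median -0.03). Eed, the polycomb subunit that reads trimethylated H3 lysine 27, had the smallest p in both the diet comparison (-0.15, SE 0.05, adjusted p = 0.185) and the interaction (-0.29, SE 0.09, unadjusted p = 0.0148, adjusted p = 0.898). It measured 7.48 and 7.46 in CR-l, 7.75 and 7.62 in CR-s, 7.75 and 7.77 in Con-l, and 7.67 and 7.71 in Con-s, so both CR-l arrays were again the lowest.

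The NuRD partners of Mbd2 were split, with 6 of 10 higher, 4 lower and 0 passing (median 0.02). Cdk2ap1 differed by -0.14 (SE 0.05, adjusted p = 0.220), the histone chaperone Rbbp7 by 0.14 (SE 0.05, adjusted p = 0.239) and Mta2 by -0.10 (SE 0.04, adjusted p = 0.280). Mta1 had the smallest interaction p of the list (0.16, SE 0.09, adjusted p = 0.898). Rbbp7 was higher and Mta2 lower on all CR arrays, while Mbd2 overlapped between diets.

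Of 12 TET cofactors and partners 7 were higher, 5 lower and 0 passed (median 0.01). Arrays did not overlap between diets for 4 of the 12, all 4 lower, against 11.2% of all genes in either direction. Cxxc5, a CpG-binding protein reported to act on TET2, measured 10.23 and 10.12 in CR-l, 10.16 and 10.22 in CR-s, 10.30 and 10.33 in Con-l, and 10.37 and 10.34 in Con-s. The CR arrays were all dimmer, with a difference of -0.15 (SE 0.04, adjusted p = 0.173). Ogt, the O-GlcNAc transferase that binds TET proteins, differed by -0.15 (SE 0.05, adjusted p = 0.246), and Ogdh, an enzyme that uses the TET co-substrate 2-oxoglutarate, by -0.12 (SE 0.05, adjusted p = 0.266). Vdr had the smallest interaction p of the list (-0.19, SE 0.10, adjusted p = 0.898).

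Methyl groups reach the writers through one-carbon metabolism, where 14 of 24 measured genes were higher, 10 lower and 0 passed (median 0.03). Bhmt, which remakes methionine with betaine, measured 5.11 and 4.92 in CR-l, 5.01 and 4.99 in CR-s, 4.83 and 4.66 in Con-l, and 4.92 and 4.61 in Con-s. With a mean of 4.88, Bhmt was the dimmest gene of the list, and no detection call was used. CR-l replicate B lay just below Con-s replicate A, and the difference was 0.25 (SE 0.08, limma adjusted p = 0.214). Chdh, which makes betaine from choline, differed by -0.15 (SE 0.06, adjusted p = 0.258) and Ahcyl2 by -0.12 (SE 0.04, adjusted p = 0.248), both without overlap. Gnmt, which consumes the methyl donor S-adenosylmethionine, had the smallest interaction p (-0.35, SE 0.18, adjusted p = 0.898).

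Genes known as imprinted, whose parental expression depends on DNA methylation where the imprint holds, were also listed. Neither parental origin nor methylation was measured, so their levels are not a readout of the mark. Of 23 such genes 15 were higher, 8 lower and 0 passed (median 0.03). Igf2, the growth factor gene whose imprint is much studied after early undernutrition, measured 8.53 and 9.06 in CR-l, 8.73 and 8.72 in CR-s, 9.55 and 9.21 in Con-l, and 9.33 and 9.25 in Con-s. All CR arrays were dimmer than all Con arrays, by 0.57 (SE 0.12, interval -0.87 to -0.28, adjusted p = 0.0887), and the difference passed with limma among the upper 60 percent of genes (adjusted p = 0.0305) and with diet as the only factor (adjusted p = 0.0378). Those settings passed 609 and 267 genes in all, against 175 in the main fit. With 1 array left out the Igf2 difference was -0.71 to -0.44. H19, the neighbour of Igf2, was at 0.03 (SE 0.06, limma adjusted p = 0.861). H19 was chosen after its values were seen.

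The meningeal markers moved with Igf2, which meninges are known to express: all 10 were lower in restricted offspring, 4 of them passing, with a median of -0.40. Their summed intensity was 2040 to 2309 on CR arrays and 2750 to 3862 on Con arrays, and Con-l replicate A was the highest array for both Igf2 and this list. Summed intensity was also lower on all CR arrays for other marker lists. Among these were red blood cells (1404 to 2217 on CR, 3910 to 5898 on Con arrays) and oligodendrocytes (40612 to 44333 and 47568 to 52463). Vessel cells (4636 to 4766 and 5180 to 5517) and choroid plexus (524 to 536 and 551 to 618) were others. By gene, 8 of 11 vessel markers were lower and 3 higher, with 2 of the lower passing (median -0.05). Of 7 choroid plexus markers 4 were higher and 3 lower (median 0.0059), and 1 passed, Kcnj13 (-1.17). Con-l replicate A was the highest array for these last 2 lists too. The part of meningeal or any other tissue in the Igf2 difference was not tested.

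**Figure D4:**
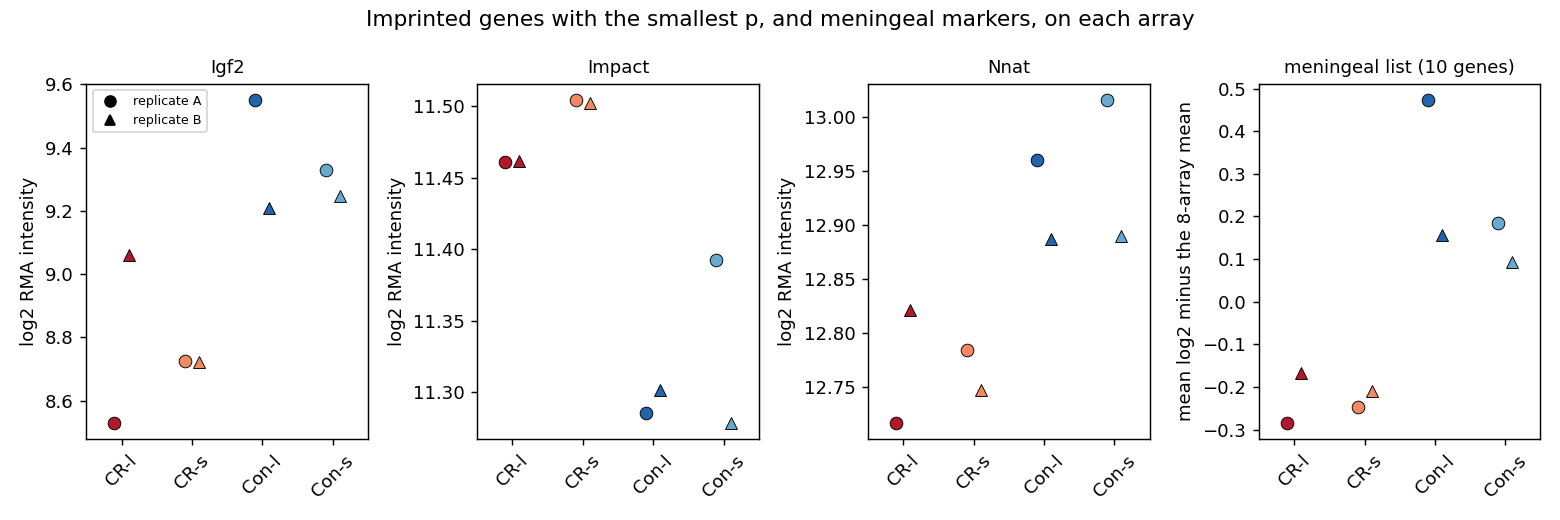
Log2 RMA intensity (y axis, own range in each panel) of the imprinted genes Igf2, Impact and Nnat on the 8 arrays by group (x axis), and the mean log2 value of 10 meningeal markers relative to their mean over the 8 arrays (right panel). Circles are replicate A and triangles replicate B; Igf2, Nnat and the meningeal list are lower and Impact higher on all 4 CR arrays than on all 4 Con arrays.

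Impact, an imprinted inhibitor of the GCN2 amino acid sensing kinase, measured 11.46 and 11.46 in CR-l, 11.50 and 11.50 in CR-s, 11.29 and 11.30 in Con-l, and 11.39 and 11.28 in Con-s. The CR arrays were all brighter, by 0.17 (SE 0.04, adjusted p = 0.127), and this difference passed with trend and robust settings (limma adjusted p = 0.00846) and among the upper 60 percent of genes (limma adjusted p = 0.0415). Those settings passed 744 and 609 genes in all, against 175 in the main fit. With 1 array left out the Impact difference was 0.14 to 0.20. Nnat, the imprinted neuronatin gene of brain and endocrine cells, measured 12.72 and 12.82 in CR-l, 12.78 and 12.75 in CR-s, 12.96 and 12.89 in Con-l, and 13.02 and 12.89 in Con-s. Its difference of -0.17 (SE 0.05, adjusted p = 0.172) passed with trend and robust settings (limma adjusted p = 0.0152). With 1 array left out the Nnat difference was -0.20 to -0.14. Usp29, next to the imprinted Peg3 locus, had the smallest interaction p of the list (0.25, SE 0.09, unadjusted p = 0.0238, adjusted p = 0.898).

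Germline genes that DNA methylation keeps silent in somatic tissue were higher in 9 of 13 cases, lower in 4, and 0 passed (median 0.02). Of all genes 50.3% were higher. Mean log2 values in this list went down to 2.73, and no detection call was used to tell such dim signals from background. Mael, a gene of the piRNA pathway, measured 5.39 and 5.17 in CR-l, 5.66 and 5.20 in CR-s, 5.04 and 5.17 in Con-l, and 4.99 and 5.10 in Con-s. CR-l replicate B was level with Con-l replicate B, CR-s replicate A was the highest array, and the difference of 0.28 (SE 0.11, adjusted p = 0.266) did not pass. Taf7l (0.13, SE 0.09) and Dazl (0.08, SE 0.06) overlapped between diets, and Dpep3 had the smallest interaction p (0.45, SE 0.20, adjusted p = 0.898).

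The genes most like each member in pattern were found by Pearson's r of log2 values over the 8 arrays among 14501 genes, as a description of these arrays, which share diet groups and dissection. Being picked as the highest of so many genes over 8 arrays makes r high for every member, and no test was made. For Dnmt3a the genes picked were Zcchc24 (0.990) and Selenom (0.988), which differed between diets by 0.19 and 0.16. For Dnmt1 they were Mogs (0.971) and Supt16h (0.960), and for Uhrf1 Serpina9 (0.982) and Cpt1b (0.967). For Dnmt3b they were Prl3d4 (0.984) and Nodal (0.978), and for Mbd2 Recql5 (0.967) and Nudt12 (0.957). Between members r ran from -0.69 (Mbd2 with Uhrf1) to 0.66 (Dnmt3a with Uhrf1), and the maintenance pair Dnmt1 and Uhrf1 had -0.43.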

How the data were processed

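Hypothalamic RNA of 8 samples in 4 groups of 2 was hybridised to Affymetrix Rat Gene 1.0 arrays. Per the submitters' processing notes, the authors summarised probe sets by RMA in Affymetrix Expression Console (version: not given in the sources used here). Each deposited value is a linear intensity, as the range shows, and was turned into log2 here with no further normalization. Of 29215 probe sets, 15310 had 1 gene symbol and 323 several. Symbols were updated by Entrez number through RefSeq (15279 probe sets). Genes with several probe sets were represented by the brightest (mean of 8 arrays), leaving 14506 genes; all 5 measured members had 1 probe set. Dim probe sets were not removed, and no detection call was used.

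A limma model (limma 3.58.1, R 4.3.3) with 4 group means gave 8 comparisons with 4 residual and 3.21 prior degrees of freedom, two-sided, adjusted by Benjamini-Hochberg over all genes. Averaged comparisons set 4 arrays against 4. The fit was tested on simulated data before use. With 2 arrays a group, array number limits precision: the median half-width of the 95% interval over all genes was 0.19 in log2 units for 2 arrays against 2 and 0.14 for 4 against 4.

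Members and lists were chosen with earlier results of these data known. The members are named whatever their result. In each pathway or partner list the 3 genes with the smallest unadjusted p in the averaged diet comparison and the 1 with the smallest in the interaction are named, and of marker lists up to 2; H19, Top2a and Oxt were named after their values were seen. For likeness, the 2 genes with the highest r per member are named. Alternatives were other variance settings, normalizations, filters and probe set rules, a block for the letters, fewer groups in the fit, and each array left out.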

Additional observations from a re-analysis of the deposited data

How the results depend on the processing

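No call on a member was lost under any alternative, since none passed to begin with. The number of members passing was 0 of 5 in all 8 comparisons under every alternative except 1: among the upper 60 percent of genes by mean, which leaves out Dnmt3b and Uhrf1, 1 member (Dnmt3a) passed in the averaged diet comparison, with fewer genes tested. In that setting 609 genes passed in all, against 175 in the main fit. Leaving out 1 array gave 0 members passing in each comparison. Of 1188 recomputed differences of members and named pathway genes, 1152 kept direction and side of the threshold, 8 gained a call and 28 turned sign, all 28 on leaving out an array; where an arm kept 1 array, that array was assumed to vary like the other groups.

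With each array left out in turn, these log2 differences crossed 0, none with a call. Dnmt3b ranged from -0.029 to 0.17 in CR-s vs Con-s, from -0.33 to 0.0071 in CR-l vs Con-l, from -0.13 to 0.039 in the averaged diet comparison. Mbd2 ranged from -0.0050 to 0.035 in CR-s vs Con-s, from -0.080 to 0.011 in CR-l vs CR-s, from -0.029 to 0.035 in Con-l vs Con-s, from -0.068 to 0.023 in CR-l vs Con-l, from -0.065 to 0.025 in CR-l vs Con-s, from -0.083 to 0.0077 in the interaction, from -0.026 to 0.019 in the averaged diet comparison, from -0.038 to 0.0068 in the averaged leptin comparison. Dnmt1 ranged from -0.075 to 0.057 in Con-l vs Con-s, from -0.11 to 0.023 in CR-l vs Con-s, from -0.0077 to 0.058 in the averaged leptin comparison. Dnmt3a ranged from -0.052 to 0.0028 in Con-l vs Con-s. Uhrf1 ranged from -0.062 to 0.12 in Con-l vs Con-s, from -0.037 to 0.15 in the interaction. Dnmt3l ranged from -0.12 to 0.0019 in the interaction.

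A replicate block for the letters A and B left 87 genes passing in the averaged diet comparison, against 175 without it, and gave Dnmt3a an adjusted p of 0.180 (limma). The block changed no call on a member. Deviations of the A arrays from their group means correlated between -0.06 and 0.11 over pairs of groups. With 2 arrays a group, these correlations cannot settle whether samples with the same letter share anything more than the letter. The count of all genes passing in that comparison was 744 with trend and robust settings, 609 among the upper 60 percent, 267 with diet alone, 0 with every probe set tested together, and 0 to 27 without 1 array, the lowest without Con-s replicate B and the highest without CR-l replicate A. The marker list calls named above rest on those 175. In CR-l against Con-l, where 3 passed, the counts were 469, 249, 24 (cyclic loess and quantile normalization) and 0 (block, all probe sets, only the compared groups); in CR-l against Con-s, where 2 passed, 213 with trend and robust settings, 103 among the upper 60 percent and 0 with the block or all probe sets; in CR-s against Con-s, where 0 passed, 66 and 16. Cdk2ap1 (adjusted p = 0.0381) and Cxxc5 (adjusted p = 0.0331) passed in the averaged diet comparison with trend and robust settings of limma. The interaction was not fitted with fewer groups, since it needs all 4. With 2 arrays a group, differences below the interval widths given could not be resolved.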
